A study of Mus musculus with 44 samples.

Results

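The MAP kinase feedback inhibitors were 9 genes, the dual-specificity phosphatases Dusp1, Dusp4, Dusp5, Dusp6 and Dusp14, the Sprouty genes Spry2 and Spry4, and the Spred genes Spred1 and Spred2. They were taken by name from a count table of 55335 genes of translating hippocampal mRNA, by matching each Ensembl identifier to the GENCODE annotation of GRCm38, and all 9 were found and passed the filter on low counts in every comparison. Dusp5 (ENSMUSG00000034765.6) lies at chr19:53529109-53542431, Dusp14 (ENSMUSG00000018648.15) at chr11:84048041-84069261, Dusp4 (ENSMUSG00000031530.6) at chr8:34807297-34819894, Dusp6 (ENSMUSG00000019960.8) at chr10:99263231-99267489 and Dusp1 (ENSMUSG00000024190.7) at chr17:26505590-26562128. Spry2 (ENSMUSG00000022114.5) lies at chr14:105891947-105896819, Spry4 (ENSMUSG00000024427.7) at chr18:38586247-38601415, Spred1 (ENSMUSG00000027351.14) at chr2:117121374-117182279 and Spred2 (ENSMUSG00000045671.17) at chr11:19924375-20024026. The annotated Dusp1 locus overlaps the same-strand genes AC122252.1 and AC122252.4, so its counts are less certain than those of the other members.

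A growth factor such as BDNF, or calcium entering an active neuron, switches on Ras, which drives a relay of the kinases RAF, MEK and ERK. ERK then phosphorylates transcription factors that switch on immediate early genes, and among the genes induced are inhibitors of the relay itself. Dual-specificity phosphatases remove phosphate from both the threonine and the tyrosine that activate a MAP kinase, whereas Sprouty and Spred proteins act further up, at the level of the receptor, Ras and RAF. In the hippocampus this relay is known for its part in synaptic plasticity and memory.

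The mRNA came from male Emx1-NuTRAP mice, in which Cre made under the Emx1 gene switches on a tagged ribosomal protein (for translating ribosome affinity purification, TRAP) and a tagged nuclear envelope. Early-life exercise (ELE) mice had free access to a running wheel on postnatal days 21 to 41, and sedentary males of the same litters were housed without one, all in pairs. In the simultaneous isolation (SIT), which takes nuclei and RNA from 1 homogenate of both hippocampi, there were 4 ELE and 4 sedentary libraries, of which the study used 3 and 2. In the separate isolation, RNA came from the left hippocampus of 3 ELE and 3 sedentary mice and from the right hippocampus of 3 other ELE and 3 other sedentary mice. Each library was 1 mouse, and group and hemisphere follow the study's table of animals, since the sample labels carry no mouse number. If the mice were matched to the public sample records by order alone, the hemispheres of the 12 separate libraries would be swapped and their exercise groups would stay the same. The table was kept because the mean counts that the study lists for left and for right were matched by it, so left and right below are the names that table gives. The 20 libraries held 45895097 to 65767802 counts. Emx1 is also active in the lineage of astrocytes, and their markers were present: Gfap, the intermediate filament of astrocytes, ranged from 1135 to 4060 CPM (counts scaled by library size) in the 17 libraries the study used, while the summed level of 4 microglial markers was at most 5.30 CPM and that of 3 endothelial markers at most 20.6 CPM. The 4 markers of oligodendrocytes summed to 1807 to 3053 CPM in the same 17 libraries. The 5 markers of excitatory neurons summed to 6167 CPM or more in every one of these libraries. In such bulk libraries, fewer cells of a type and less RNA per cell cannot be told apart.

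Some libraries stood apart. The ELE library NT6.304, left out by the study after a principal component analysis, had the highest level of 20 libraries for 8 of the 9 inhibitors. The sedentary SIT libraries NT7.2.3 and NT7.2.4, also left out, had 8.64% and 9.64% of their counts on mitochondrial genes, against at most 0.523% in the other libraries, and 125 and 134 CPM of the summed microglial markers. Among the 17 libraries used, TG9.1.4 (left ELE), TG9.2.1 (right ELE) and TG9.1.1 (right sedentary) had 3334 to 4060 CPM of Gfap, against 1135 to 2468 CPM in the other 14. The SIT ELE library TG7.4.2, also used, had 0.731% of its counts on ribosomal RNA genes outside the mitochondria, against at most 0.172% in the other libraries. Choroid plexus markers (3 genes, summed) were at 123 to 560 CPM in SIT ELE and at 561 to 652 CPM in SIT sedentary libraries, at 17.3 to 41.3 CPM in right ELE and at 33.1 to 1126 CPM in right sedentary libraries, and spanned 24.9 to 1229 CPM in the left ones. In the left libraries the 4 oligodendrocyte markers summed to 2161 to 2403 CPM in ELE and 2440 to 2822 CPM in sedentary mice. The 4 markers of inhibitory neurons summed to 222 to 223 CPM in left ELE and 228 to 263 CPM in left sedentary mice. The marker sums of the other cell types overlapped between these left groups. The part of all these markers in the results below was not tested. Several results below are given with and without a library that stood apart.

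The promoters of Dusp1 and Dusp5 are shown because, of the 7 windows searched, theirs held the only full cAMP response element and the only serum response elements, sequences through which cAMP signalling and ERK signalling are known to act on immediate early genes. Each window runs from 250 bases before to 50 bases after the RefSeq transcription start on GRCm38.p6. Capitals mark the cAMP response element TGACGTCA, its core, which is TGACG or, on the other strand, reads as CGTCA, and the serum response element, also called the CArG box.
Dusp1, chr17:26508423-26508722, minus strand: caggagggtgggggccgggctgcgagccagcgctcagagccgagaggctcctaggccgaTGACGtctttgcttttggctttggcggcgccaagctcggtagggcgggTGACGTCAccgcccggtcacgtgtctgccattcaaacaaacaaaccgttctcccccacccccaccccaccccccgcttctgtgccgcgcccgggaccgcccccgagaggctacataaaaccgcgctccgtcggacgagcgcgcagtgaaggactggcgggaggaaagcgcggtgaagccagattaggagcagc
Dusp5, chr19:53528895-53529194, plus strand: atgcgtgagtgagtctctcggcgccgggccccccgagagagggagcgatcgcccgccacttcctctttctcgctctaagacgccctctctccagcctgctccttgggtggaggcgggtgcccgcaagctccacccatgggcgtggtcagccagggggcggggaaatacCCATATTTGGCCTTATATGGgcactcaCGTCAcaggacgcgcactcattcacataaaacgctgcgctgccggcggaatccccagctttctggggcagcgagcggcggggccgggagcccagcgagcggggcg
Dusp1 held 1 full cAMP response element, which begins 143 bases before the start, and 3 copies of its core, of which 2 lie within the full element. Dusp5 held 2 adjacent CArG boxes, which begin 82 and 72 bases before the start, and 1 core of the cAMP response element, 55 bases before it. Of 32851 mouse promoter windows of the same length, 1.79% held the full cAMP response element on either strand, 20.8% held the core and 1.63% held a CArG box. Windows were found for 7 of the 9 members. The full element was in 1 of these 7, the core in 3 (Dusp1, Dusp5 and Spred2) and the CArG box in 1. Neither the ETS core CCGGAAG, found in 8.86% of all windows, nor the AP-1 site TGANTCA, found in 7.81%, was in any of the 7, on either strand. These matches describe letters in a window and are not measurements of binding.

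Scaled by exonic length (RPKM, the CPM divided by the exonic length in kilobases), the Spred genes were the most abundant of the inhibitors and Dusp1 and Spry4 the least. Over the 17 libraries, Spred2, which holds RAF in check at the membrane, averaged 48.3 RPKM (41.5 to 61.6), above the whole range of Spred1 at 28.3 RPKM (23.6 to 36.7). Spry2 averaged 24.5 RPKM (19.998 to 29.6), and its range overlapped that of Spred1. Dusp14 at 15.8 RPKM (9.84 to 27.0), Dusp5 at 13.4 RPKM (9.83 to 18.8), Dusp6 at 11.1 RPKM (8.16 to 19.4) and Dusp4 at 10.3 RPKM (6.97 to 15.2) overlapped one another. Dusp1 at 3.13 RPKM (1.89 to 4.22) and Spry4 at 2.50 RPKM (1.74 to 4.41) were not separable from each other. The members also differed in how much mice of the same group varied. The standard deviation of log2 CPM within groups was 0.39 for Dusp14, 0.38 for Spry4 and 0.37 for Dusp1, and 0.12 for Spred2, beside a median of 0.16 over 11145 genes averaging 5 CPM or more.

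**Figure D1:**
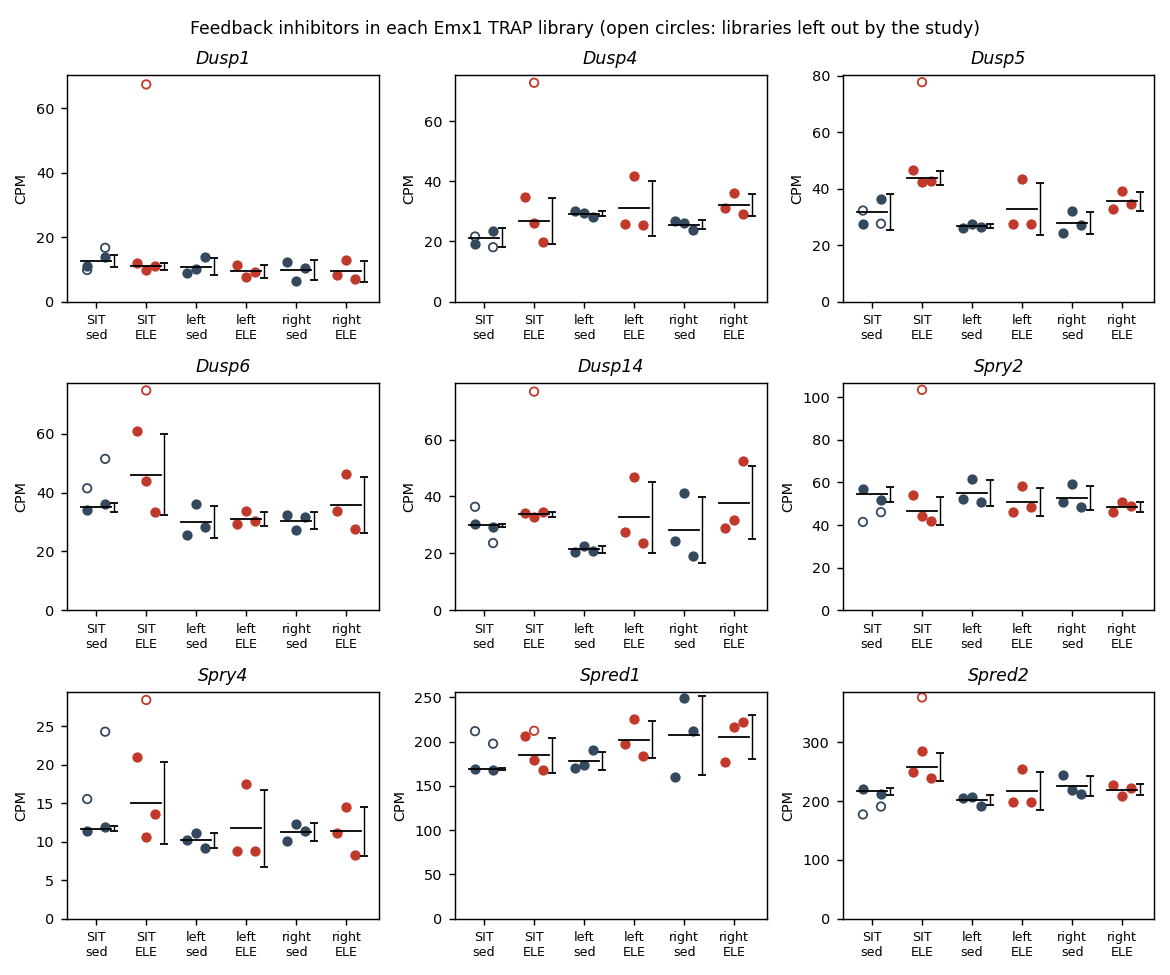
CPM of the 9 inhibitors (vertical axis, linear, from 0) in each library of the 6 groups; filled circles are the libraries used by the study, open circles those it left out, horizontal bars the group means and brackets the standard deviations of the filled circles. The open circle of ELE library NT6.304 is the highest in every panel but Spred1, and the 3 filled SIT ELE circles of Dusp5 (42.2 to 46.5 CPM) lie above both SIT sedentary circles (27.3 and 36.4 CPM).

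Dusp5, a nuclear phosphatase that acts on ERK, was the only one of the 9 to pass the threshold in the SIT libraries, where a gene was called at an unadjusted p under 0.05 and a change of more than 1.3-fold, as 3.73% of all genes tested were. It was at 46.5, 42.2 and 42.5 CPM in ELE mice NT6.303, TG7.4.1 and TG7.4.2, and at 27.3 and 36.4 CPM in sedentary mice NT6.305 and NT6.306. Every ELE library was above both sedentary ones. ELE mice TG7.4.1 and TG7.4.2 share the leading part of their number with no sedentary SIT mouse, so exercise and mouse number go partly together here. The log2 fold change was 0.46 ± 0.15 (SE), a 1.37-fold difference, past the unadjusted threshold but with an adjusted p of 0.905 over all genes in edgeR's quasi-likelihood test. The study names Dusp5 among genes raised in these same libraries, so this is a description of that choice and not independent evidence. An exact two-sided permutation test of these 5 libraries, which doubles the smaller tail, gave p = 0.2, the smallest it can give here. Without sedentary mouse NT6.305 the log2 fold change was 0.27, and without NT6.306 it was 0.68. Each of these fits leaves 1 sedentary library, so no call is read from it. Without ELE mouse NT6.303, TG7.4.1 or TG7.4.2 it was 0.41, 0.49 or 0.48, called each time.

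The separate libraries share no mouse with SIT. In the right hippocampus Dusp5 was at 32.7, 39.1 and 34.6 CPM in ELE mice TG7.3.1, TG9.1.3 and TG9.2.1, and at 24.3, 32.0 and 27.1 CPM in sedentary mice TG7.3.3, TG9.1.1 and TG9.2.3. The groups again did not overlap, with a log2 fold change of 0.35 ± 0.13 and an exact two-sided permutation p = 0.1, the smallest that 3 against 3 allows. The unadjusted edgeR p was under 0.05, and the difference of 1.278-fold was just under the fold threshold. In the left hippocampus it was at 27.5, 43.4 and 27.4 CPM in ELE mice TG7.3.2, TG9.1.4 and TG9.2.2, and at 26.1, 27.5 and 26.5 CPM in sedentary mice TG7.3.4, TG9.1.2 and TG9.2.4. Here the groups overlapped, and the log2 fold change was 0.29 ± 0.18 with library TG9.1.4 and 0.037 without it. Between mice that share the leading part of their number, ELE was higher in 3 of 3 pairs, and the fit with that pairing gave 0.26 ± 0.14, which was not called. With hemisphere as a covariate over the 12 separate libraries, the log2 fold change was 0.32 ± 0.11 (1.25-fold, adjusted p = 0.902), and 0.24 ± 0.10 (adjusted p = 0.868) without the 3 libraries highest in Gfap. The unadjusted p was under 0.05 in both of these fits, and also when any 1 of the 12 libraries was left out, at 0.21 to 0.38. Adding the 5 SIT libraries, a fit chosen after the data had been seen, gave 0.36 ± 0.09 and an adjusted p of 0.307. Dusp5 was therefore higher in ELE in the mean of each of the 3 sets of mice, by less than 1.3-fold in the separate ones, and did not pass correction over all genes in any of these fits.

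Dusp14, a small atypical phosphatase known to act on MAP kinases and on TAB1, passed the threshold in the left hippocampus and over both hemispheres. In left ELE mice TG7.3.2, TG9.1.4 and TG9.2.2 it was at 27.4, 47.0 and 23.5 CPM, and in left sedentary mice TG7.3.4, TG9.1.2 and TG9.2.4 at 20.6, 22.6 and 20.8 CPM. The groups did not overlap, and the log2 fold change was 0.61 ± 0.23 (1.52-fold, adjusted p = 0.960 in edgeR; exact permutation p = 0.1). The largest single value was again that of TG9.1.4, and without it the log2 fold change was 0.25, under the fold threshold. The call was also lost without each of the sedentary libraries TG7.3.4, TG9.1.2 and TG9.2.4, where the log2 fold changes of 0.58, 0.65 and 0.59 no longer had an unadjusted p under 0.05. In the right hippocampus Dusp14 was at 29.0, 31.7 and 52.6 CPM in ELE mice TG7.3.1, TG9.1.3 and TG9.2.1 and at 24.5, 41.3 and 19.1 CPM in sedentary mice TG7.3.3, TG9.1.1 and TG9.2.3, which overlapped (log2 fold change 0.42 ± 0.29, not called). In SIT it was at 34.0, 32.6 and 34.4 CPM in ELE and at 30.2 and 29.4 CPM in sedentary mice, with a log2 fold change of 0.18 ± 0.12, which was not called although the groups did not overlap. Over both hemispheres the log2 fold change was 0.51 ± 0.21 (1.43-fold, adjusted p = 0.902 in edgeR), and leaving out 1 library at a time gave 0.34 to 0.69, with the call lost without TG7.3.3, TG7.3.4, TG9.1.4, TG9.2.1 or TG9.2.3.

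Dusp14 was highest in the libraries picked above for their Gfap level. It was at 41.3 to 52.6 CPM in the 3 libraries highest in Gfap and at 19.1 to 34.4 CPM in the other 14. In the same 3 libraries Aqp4, the astrocyte water channel, was at 308 to 351 CPM against 109 to 227 CPM, while Slc1a3 and Gja1, a glutamate transporter and a gap-junction protein of astrocytes, were at 513 to 613 and 119 to 180 CPM, inside the ranges of the other 14 (322 to 752 and 96.0 to 236 CPM), and Aldh1l1, a folate enzyme of astrocytes, was at 43.6 to 51.8 CPM against 21.997 to 51.1 CPM. The 5 astrocyte markers summed to 4480 to 5070 CPM in these 3 libraries and to 1684 to 3173 CPM in the others. Gfap, by which the libraries were picked, made this gap: without it the sums were 1010 to 1145 CPM, inside the 549 to 1259 CPM of the others. Without the 3 libraries, a choice made after seeing these values, Dusp14 was still higher in ELE over both hemispheres, at a log2 fold change of 0.35 ± 0.10 (adjusted p = 0.774 in edgeR) with an unadjusted p under 0.05, but at 1.279-fold it was under the fold threshold. In the right hippocampus the remaining ELE libraries (29.0 and 31.7 CPM) were above the remaining sedentary ones (24.5 and 19.1 CPM), with a log2 fold change of 0.48 ± 0.16 (adjusted p = 0.806 in edgeR).

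**Figure D2:**
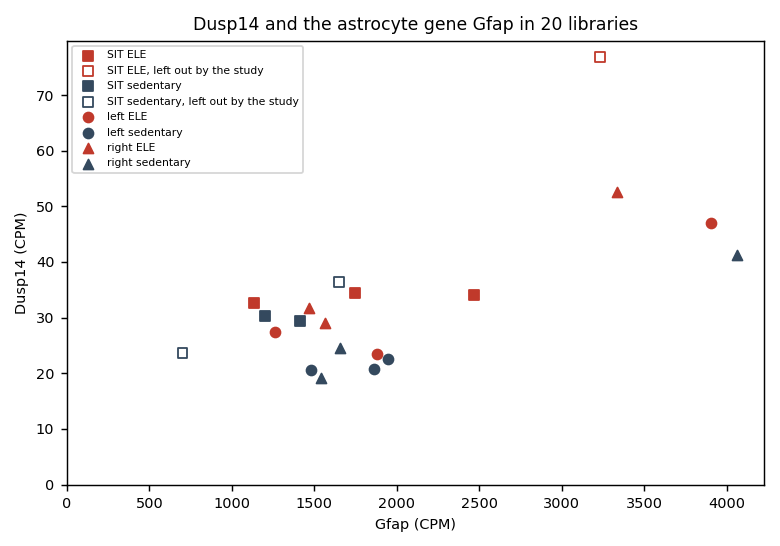
Dusp14 (vertical axis, CPM) against Gfap (horizontal axis, CPM), both linear and from 0, in the 20 libraries; colour marks ELE (red) and sedentary (dark), shape the isolation or hemisphere, open symbols the libraries left out by the study. The 3 separate libraries with 3334 to 4060 CPM of Gfap hold 41.3 to 52.6 CPM of Dusp14, and NT6.304 is highest in Dusp14 at 76.9 CPM.

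Dusp4, a nuclear phosphatase of ERK, JNK and p38, did not overlap between the groups of the right hippocampus. It was at 31.1, 36.2 and 29.2 CPM in the right ELE mice and at 26.9, 26.3 and 23.8 CPM in the right sedentary mice, at a log2 fold change of 0.33 ± 0.12 (1.26-fold, exact permutation p = 0.1). The unadjusted edgeR p was under 0.05 and the change under 1.3-fold. In the left hippocampus it was at 25.9, 41.7 and 25.5 CPM in ELE and at 30.1, 29.4 and 28.3 CPM in sedentary mice, so that 2 of 3 ELE libraries lay below all 3 sedentary ones and only TG9.1.4 lay above them. The left log2 fold change was 0.08 ± 0.18 and turned to -0.19 without TG9.1.4. In SIT it was at 35.0, 26.1 and 19.7 CPM in ELE and at 19.1 and 23.5 CPM in sedentary mice (log2 fold change 0.34 ± 0.22), with the groups overlapping. The SIT value was 0.10 without NT6.303, and 0.52 and called without TG7.4.2.

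Dusp6, the cytoplasmic phosphatase that is selective for ERK, varied widely between mice of the same group. In SIT ELE mice NT6.303, TG7.4.1 and TG7.4.2 it was at 60.9, 44.0 and 33.5 CPM, beside 33.9 and 36.1 CPM in the sedentary mice. TG7.4.2 lay below both sedentary libraries, and the log2 fold change of 0.40 ± 0.21 was not called. It was 0.14 without NT6.303, and 0.58 and called without TG7.4.2. In the right hippocampus it was at 33.7, 46.2 and 27.7 CPM in ELE and at 32.5, 27.1 and 31.7 CPM in sedentary mice, and in the left at 29.2, 33.6 and 30.2 against 25.6, 36.1 and 28.4 CPM. Neither hemisphere separated the groups, with log2 fold changes of 0.24 ± 0.17 in the right and 0.04 ± 0.14 in the left. The right value was 0.011 without TG9.1.3, and 0.39 and called without TG9.2.1. The left value was -0.019 without TG9.1.4.

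Dusp1, an immediate early phosphatase of p38, JNK and ERK, was lower in the mean of ELE mice in all 3 sets, but by less than the spread. Its log2 fold changes were -0.20 ± 0.19 in SIT, -0.21 ± 0.22 in the left and -0.05 ± 0.29 in the right hippocampus, none with an unadjusted p under 0.05. All 17 libraries lay between 6.27 and 13.98 CPM, with ELE and sedentary values interleaved.

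Spry2, which blocks signalling from receptor tyrosine kinases to Ras, was the other member with lower ELE means in all 3 sets. In SIT it was at 54.0, 44.0 and 41.7 CPM in ELE and at 56.9 and 51.9 CPM in sedentary mice (log2 fold change -0.22 ± 0.14). The left and right log2 fold changes were -0.11 ± 0.12 and -0.12 ± 0.10, and over both hemispheres -0.12 ± 0.08, none of them called. Blocked on the leading part of the mouse number, the value over both hemispheres was -0.11 ± 0.05. Its unadjusted edgeR p was under 0.05 and its adjusted p 0.732, and it was not called. Over the 17 libraries Spry2 was at -0.14 ± 0.07, with an unadjusted p under 0.05, an adjusted p of 0.674 and a change far below 1.3-fold. Spry4, a lower-abundance Sprouty, was at 20.9, 10.6 and 13.6 CPM in SIT ELE and at 11.4 and 11.9 CPM in SIT sedentary mice, with the high value in NT6.303. Its log2 fold changes were 0.37 ± 0.26 in SIT, 0.20 ± 0.27 in the left and 0.01 ± 0.20 in the right hippocampus, and in the left the highest library was TG9.1.4 at 17.5 CPM. The left value of Spry4 turned to -0.21 without TG9.1.4. The SIT value was 0.050 without NT6.303, and 0.57 and called without TG7.4.1.

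Spred2 did not overlap between the SIT groups, at 250, 284 and 239 CPM in ELE and 221 and 212 CPM in sedentary mice. Its log2 fold change of 0.25 ± 0.10 (1.19-fold) had an unadjusted p under 0.05 but was under the fold threshold, and it was 0.11 ± 0.11 in the left and -0.039 ± 0.09 in the right hippocampus. Spred1, the relative of Spred2 that also binds neurofibromin, differed by 0.13 ± 0.11 (log2) in SIT, 0.18 ± 0.09 in the left and -0.01 ± 0.15 in the right hippocampus. Without TG9.1.4 the left values of Spred2 and Spred1 were -0.025 and 0.094.

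The calls among the 9 are set beside the share of all genes called. In SIT 1 of 9 members passed the threshold, beside 3.73% of 18238 genes tested. In the left hippocampus it was 1 of 9 (Dusp14) beside 2.12% of all genes. None of 9 passed in the right hippocampus, where DESeq2 also called none and 2.00% of all genes were called. There 2 members (Dusp4 and Dusp5) had an unadjusted p under 0.05, as did 488 of 17570 genes. Over both hemispheres 1 of 9 (Dusp14) passed, beside 2.00%. After adding the SIT libraries 1 of 9 (Dusp14) passed, beside 2.38%. A single call among 9 is a larger share than these, and without it the share would be 0. The groups did not overlap in 3 of 9 members in SIT (Dusp5, Dusp14 and Spred2), beside 22.1% of all genes, in 1 of 9 in the left beside 10.8%, and in 2 of 9 in the right beside 7.69%. The median log2 fold change over the 9 was 0.25 in SIT, 0.11 in the left and 0.01 in the right, while the median of all genes lay between -0.005 and 0.004. Without TG9.2.1 and TG9.1.1, the right libraries highest in Gfap, 3 of 9 members (Dusp4, Dusp5 and Dusp14) were called beside 3.65% of all genes, at log2 fold changes of 0.41, 0.48 and 0.48. Without these and TG9.1.4, none of 9 was called over both hemispheres, beside 2.26%, although Dusp5 and Dusp14 had an unadjusted p under 0.05.

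**Figure D3:**
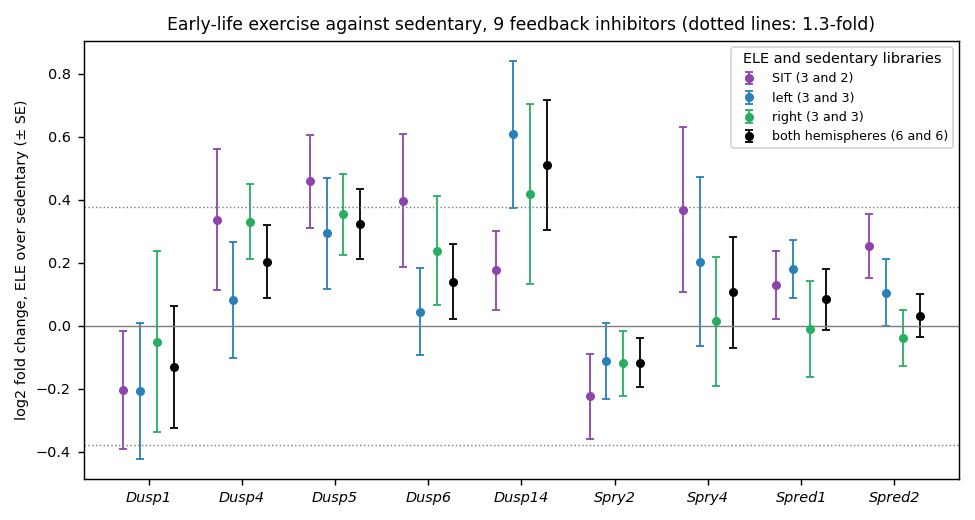
Log2 fold change of ELE over sedentary (vertical axis, points, with SE as bars) of the 9 inhibitors in SIT, the left and right hippocampus and both hemispheres; dotted lines mark 1.3-fold. Dusp5 (0.29 to 0.46) and Dusp14 (0.18 to 0.61) are above 0 in all 4 and Dusp1 and Spry2 below 0 in all 4.

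The exercise difference was not shown to depend on hemisphere or isolation for any inhibitor. In the interaction of exercise with hemisphere none of the 9 members had an unadjusted p under 0.05 in edgeR, none was called by edgeR or DESeq2, and 2.21% of all genes were called by edgeR. The largest of these terms for their errors were those of Dusp4 at -0.25 ± 0.23 and of Spred2 at 0.14 ± 0.14 (log2, left minus right effect). In the interaction with isolation, again none was under an unadjusted p of 0.05, beside 4.30% of all genes called, and the largest term for its error was that of Spred2 (0.22 ± 0.13, adjusted p = 0.961). Between left and right hippocampi, with exercise as a covariate, no member had an unadjusted p under 0.05 (DESeq2 called none either), beside 1.15% of all genes called. The standard errors of the hemisphere interaction, 0.14 to 0.43, are as large as most of the exercise differences themselves.

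Between SIT and separate libraries, 2 of the 9 had an adjusted p under 0.05, close to the 25.5% of all genes that did. With exercise as a covariate, Dusp6 was higher in SIT than in separate isolation by 0.36 ± 0.12 (log2, 1.29-fold, adjusted p = 0.0362 in edgeR) and Dusp5 by 0.31 ± 0.10 (1.24-fold, adjusted p = 0.0258). Dusp4 was lower in SIT, at -0.28 ± 0.12 (log2), and did not pass correction (adjusted p = 0.101). None of the 9 passed 1.3-fold, in a comparison that called 15.0% of all genes, and DESeq2 called none either; in the sedentary libraries alone Dusp5 and Dusp6 had an adjusted p = 0.260 and an adjusted p = 0.286. With all 20 libraries, 4 members (Dusp1, Dusp5, Dusp6 and Spry4) were called as higher in SIT, beside 12.9% of all genes. Isolation, the part of hippocampus taken and the set of mice changed together and cannot be told apart.

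The ELE library NT6.304 held the largest departure of the inhibitors among the 20 libraries. Dusp1 was at 67.4 CPM in it and at 6.27 to 16.7 CPM in the other 19 libraries, 6.41 times their median. Dusp4 was at 72.8 CPM (2.77 times the median of the others), Dusp14 at 76.9 CPM (2.61 times), Spry4 at 28.4 CPM (2.49 times), Dusp5 at 77.7 CPM (2.43 times), Dusp6 at 74.8 CPM (2.22 times), Spry2 at 104 CPM (2.05 times) and Spred2 at 376 CPM (1.77 times). Only Spred1 was within the range of the rest, at 212 CPM. Among 11183 genes averaging 5 CPM or more over the 20 libraries, the median ratio was 1.01 and 17.04% of genes were highest in NT6.304. Dusp1 ranked 37 of these genes by its ratio, and Spred1 ranked 3901. The immediate early genes that ERK induces stood out in the same library: 13 of 16 were highest of 20 libraries in it, at a median of 6.16 times the others' median. Fos was at 613 CPM against at most 34.5 CPM elsewhere, Npas4 at 137 against at most 10.8 CPM and Arc at 1120 against at most 212 CPM, whereas Nr4a2 was at 33.4 CPM, the lowest of the 20. The kinases of the cascade had a median ratio of 1.01 and the receptors and adaptors one of 0.848. Its Gfap level was 3229 CPM, its mitochondrial share was 0.195%, below the 0.245% to 0.523% of the SIT libraries the study used, and its 51744157 counts lay within their range. The part of these in its inhibitor levels was not tested.

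**Figure D4:**
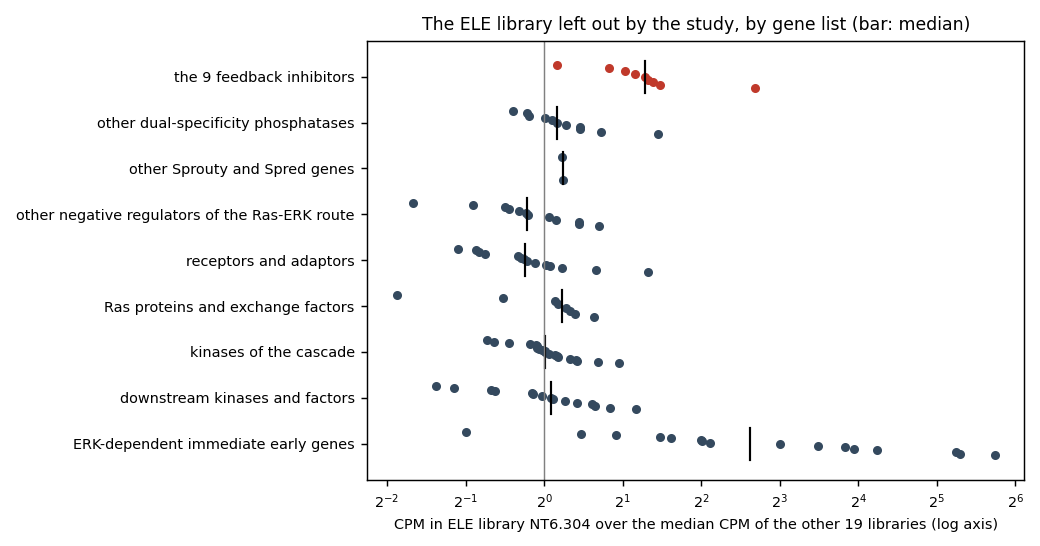
CPM in ELE library NT6.304 divided by the median CPM of the other 19 libraries (horizontal axis, log scale) for each gene of 9 lists; each point is a gene, red for the inhibitors, and bars are medians. The medians of the inhibitors (2.43) and of the immediate early genes (6.16) lie to the right of 1. The medians of the other 7 lists lie between 0.848 and 1.18. Nr4a2, an immediate early gene, lies to the left of 1, at 0.501.

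The SIT comparison changed with that library. With all 8 SIT libraries, 3 of 9 members (Dusp4, Dusp5 and Spred2) were called, beside 7.84% of all genes, and every member had a positive log2 fold change. Dusp1 turned from -0.20 to 0.97 ± 0.58 and Spry2 from -0.22 to 0.32 ± 0.27, neither with an unadjusted p under 0.05. With the 7 SIT libraries other than NT6.304, 1 member (Dusp5) was called, beside 7.05% of all genes. Its log2 fold change was then 0.51 ± 0.14 (adjusted p = 0.547 in edgeR), and Dusp1 was at -0.24. Among the 4 mice numbered NT6, which include NT6.304, 5 of 9 members (Dusp4, Dusp5, Dusp6, Spry4 and Spred2) were called, beside 6.74% of all genes, at log2 fold changes of 0.54 to 1.34. A fit of the 5 libraries blocked on the leading part of each mouse's number takes its difference from NT6.303 against NT6.305 and NT6.306 only, and called 4 of 9 (Dusp4, Dusp5, Dusp6 and Spry4), beside 5.07% of all genes. NT6.303 was the highest of the 5 libraries in 5 members, so these calls rest on 1 mouse.

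The rest of the route was described from lists chosen with earlier results of these data known. Of the 16 immediate early genes, 5 were called in SIT (3.73% of all genes), 2 in the left (2.12%) and 6 in the right hippocampus (2.00%), all higher in ELE, and 15 of 16 had a positive log2 fold change in each of the 3. Their median log2 fold changes were 0.28, 0.25 and 0.44, against 0.25, 0.11 and 0.01 for the inhibitors. In SIT, Nr4a1, a nuclear receptor of the first wave, rose by 0.74 ± 0.18 (log2) and Bdnf, the neurotrophin upstream of the relay, by 0.44 ± 0.13. The study names both among genes raised in these same SIT libraries, so these 2 values are not independent evidence. In the right hippocampus Egr2 rose by 2.58 ± 0.72, Egr1 by 0.69 ± 0.21 and Fos by 0.94 ± 0.42. Egr2 was near the floor, at 0.22 to 7.85 CPM (median 1.29) in the 19 libraries other than NT6.304, where the median of Egr1 was 179 CPM. In the left, Egr3 rose by 0.61 ± 0.26 and Fos by 1.301 ± 0.54. These genes were not called in every set: Nr4a1 was at 0.031 ± 0.11 in the left, Bdnf at 0.063 ± 0.17 in the right, and Egr2, Egr1, Fos and Egr3 at 0.59 ± 0.69, 0.24 ± 0.21, 0.22 ± 0.23 and 0.26 ± 0.10 in SIT. The adjusted p of each of these was 0.905 or higher in edgeR.

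The counts for the other genes of the route stand beside shares of all genes called of 3.73% (SIT), 2.12% (left) and 2.00% (right and over both hemispheres). Of 11 other dual-specificity phosphatases, none was called higher. In SIT 3 were called lower, Dusp26 (log2 fold change -0.67 ± 0.15), Dusp23 (-0.71 ± 0.22) and Dusp10 (-0.83 ± 0.34), and in the right hippocampus 1, Dusp2 (-0.92 ± 0.40). Dusp2 was at 0.55 ± 0.57 in SIT and at 0.039 ± 0.36 in the left hippocampus, neither called. Dusp26 was at 0.30 ± 0.21 in the left hippocampus, not called. Dusp10 was at 0.10 ± 0.30 in the left and -0.40 ± 0.42 in the right hippocampus. Dusp23 was at -0.025 ± 0.16 in the left and -0.035 ± 0.17 in the right, and none of these was called. Dusp10 and Dusp2 were near the floor, with medians of 1.80 and 1.37 CPM in the 19 libraries other than NT6.304. Spry1 was called higher in SIT (0.54 ± 0.24), where Spred3 was not called and Spry3 did not pass the filter on low counts. Of 12 other negative regulators, 2 were called in SIT, Errfi1, a feedback inhibitor of the EGF receptor (0.41 ± 0.12), and Rasal2, a Ras GTPase-activating protein (0.55 ± 0.18). Errfi1 was also higher by 0.25 ± 0.08 over both hemispheres, under the fold threshold, whereas Rasal2 was at -0.0078 ± 0.067 over both hemispheres and at -0.068 ± 0.11 in the right one. None of 20 kinases of the cascade and none of 8 Ras proteins and exchange factors was called in any of these 3 comparisons or over both hemispheres. Of 14 receptors and adaptors, Erbb4 alone was called, lower in the left hippocampus (-0.42 ± 0.18). Of 15 downstream kinases and factors, Rps6ka3, the ERK-activated kinase RSK2, alone was called, in the right hippocampus (0.42 ± 0.13), and it was higher by 0.36 ± 0.07 over both hemispheres (adjusted p = 0.628 in edgeR), under the fold threshold.

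The variation of the inhibitors between mice of a group was compared in pairs. After the mean of each of the 6 groups was subtracted from log2 CPM over the 17 libraries, 29 of 36 pairs of members had a positive Pearson r, with a median of 0.41. The highest were Dusp4 with Spry4 (r = 0.77, rho = 0.69) and Dusp5 with Spry4 (r = 0.74, rho = 0.79), and the lowest Dusp1 with Dusp14 (r = -0.62, rho = -0.57). Against all 15552 orders of the libraries within their groups, no pair passed correction over the 36. Dusp5 with Spry4 had a permutation p of 0.00412 for r and 0.00302 for rho (adjusted 0.0941 and 0.0949), and r was 0.60 without the 2 libraries farthest from the median of Dusp5. Libraries differ in depth and in cell makeup, and both enter every such r. The 36 pairs come from the same 9 genes and are not independent. The share of positive pairs over all genes was not computed.

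By the same measure the genes most like each member were named. Those of Dusp14 were Mfap4 (r = 0.97), Rnf19b (r = 0.96) and S1pr3 (r = 0.96). S1pr3, a receptor for sphingosine 1-phosphate, was at 60.5 to 173 CPM in the 3 libraries highest in Gfap and at 4.38 to 10.1 CPM in the other 14. Those of Dusp6 were Yy1 (r = 0.94), Numb (r = 0.92) and the immediate early gene Egr1 (r = 0.91). Those of Dusp5 were Atmin (r = 0.95), Gab2 (r = 0.94), an adaptor of receptor tyrosine kinases, and Eif4g2 (r = 0.93). Dusp4 was most like Ier5l (r = 0.92), and Dusp1 like Fer1l5, at the lower r of 0.87. Spry2 was most like Desi1 (r = 0.93), Spry4 like Tle3 (r = 0.90), Spred1 like Naa50 (r = 0.94) and Spred2 like Pgbd5 (r = 0.91). Each r is over 17 libraries and is the highest among 11145 genes, so it is a description with no test. No member was among the 3 genes most like another member.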

How the data were processed

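TRAP-seq reads were aligned to GRCm38.p6 with STAR 2.7.3a, duplicates were removed with Picard 1.87, and the authors deposited raw counts per gene, counted by exon with strand; unique molecules were not marked. Columns were tied to groups through the study's table of animals, and its listed mean counts for SIT, left and right were matched within 0.01% for 633 of 633, 548 of 548 and 358 of 358 genes. A second table, of wild-type mice, has 24 columns that were not used. CPM used TMM factors over 20 libraries. Comparisons were fitted on all genes with edgeR 4.0.16 (R 4.3.3; filterByExpr, TMM, glmQLFit and glmQLFTest), p-values were adjusted by Benjamini-Hochberg over all genes tested, and DESeq2 1.42.0 was an alternative. The fold threshold was 1.3, or 0.3875 on the log2 scale as an alternative. Single genes were also tested by exact permutation on log2(CPM + 0.5), two-sided. The fits were tested on simulated counts. Named were the 9 members, up to 6 called genes per pathway list and the genes most like a member; members and lists were chosen with earlier results of these data known. Same-numbered ELE and sedentary mice (first part of the mouse number) deviated together in the left hippocampus (correlations 0.354, 0.119 and 0.125) and not throughout the right (0.367, -0.110 and -0.118). Fits with the SIT libraries added, without the libraries highest in Gfap or without NT6.304, and the isolation interaction, were chosen after seeing the data.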

Additional observations from a re-analysis of the deposited data

Results flagged for a closer look

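Library NT6.304 lay far from the other 3 SIT ELE libraries in 3 of the 9 inhibitors, with Dusp1 at 67.4 CPM, Dusp5 at 77.7 CPM and Dusp14 at 76.9 CPM, past Dixon's 95% critical value for the gap to the nearest library. No inhibitor passed it in the 4 SIT sedentary libraries. Chance gives such a gap in about 1 in 20 groups, and 18 groups of 4 libraries were tested, all from the same 8 mice. The cause was not tested.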

How the results depend on the processing

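DESeq2, median-of-ratios size factors and the study's log2 fold threshold, where it was run, left the number of inhibitors called as reported in all comparisons. Without a filter on low counts 2 members were called in SIT and 1 in the right hippocampus. Other SIT sets called more: 3 with all 8 libraries, with or without mitochondrial genes, 5 among the NT6 mice and 4 with the mouse-number block. In SIT, Dusp1 turned to 0.97 (all 8; 0.97 without mitochondrial genes) and 1.66 (NT6 mice), and Spry2 to 0.32 (0.33) and 0.54. Spry4 and Spred1 turned to -0.061 and -0.0087 (log2) in the 7 SIT libraries without NT6.304. In the pairing by mouse number, the replicate block kept 1 call in the left (Dusp14, log2 fold change 0.54), 0 in the right and 1 over both hemispheres, and turned right Spry4 to -0.019 and right Spred1 to 0.0050. Without the libraries highest in Gfap, 3 were called in the right and 0 over both hemispheres, right Spred1 turned to 0.081 and Spred2 over both hemispheres to -0.045. Between SIT and separate isolation, all 20 libraries called 4, and Spry2 turned to 0.080 (0.014 in sedentary libraries). Leaving out 1 ELE library at a time in SIT gave 1 call without NT6.303, 2 without TG7.4.1 and 3 without TG7.4.2. In the other comparisons, leaving out 1 library at a time gave 0 to 1 calls in the left and 0 to 2 in the right (2 without TG9.1.1 or TG9.2.1, 1 without TG7.3.1). It gave 0 to 1 over both hemispheres and 0 to 1 for the hemisphere interaction (1 without TG9.1.4). Log2 fold changes then changed sign in the left for Dusp1 (-0.38 to 0.0035), Dusp4 (-0.19 to 0.21), Dusp6 (-0.062 to 0.20), Spry4 (-0.21 to 0.37) and Spred2 (-0.025 to 0.17). In the right they did so for Dusp1 (-0.37 to 0.16), Spry4 (-0.21 to 0.19), Spred1 (-0.17 to 0.14) and Spred2 (-0.082 to 0.022), and over both hemispheres for Spry4 (-0.084 to 0.20) and Spred2 (-0.033 to 0.069). The interaction terms of Dusp1 (-0.37 to 0.16), Dusp5 (-0.32 to 0.053), Dusp6 (-0.35 to 0.027), Dusp14 (-0.19 to 0.50), Spry2 (-0.10 to 0.096) and Spry4 (-0.22 to 0.40) did too. The cause was not tested. Each inhibitor had at least 311 counts in every library used.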
